A study of Homo sapiens with 6 samples.

Results

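The genes described here are 10 genes of the NRF2 oxidative stress response and of heme and iron handling, chosen by name: the regulator NFE2L2, the heme enzyme HMOX1, the ferritin subunits FTL and FTH1, the quinone reductase NQO1, the redox genes SRXN1, PRDX1, TXN and TXNRD1, and the autophagy receptor SQSTM1. All 10 were found among the 35052 genes with a transcript in the deposited tables, and all 10 were among the 13131 genes tested. EoL-1 is a human eosinophilic leukaemia line, and the labels give its cell type as eosinophil. The study sequenced 3 wild-type libraries and 3 from an ATF3 knockout made with CRISPR/Cas9, which the series' design text calls a knockdown. Both groups grew in RPMI medium with fetal bovine serum, and no other treatment is stated. Polyadenylated RNA was sequenced. The labels do not say whether the replicates were separate cultures, or whether the knockout libraries came from 1 clone or several, so p-values reflect the spread among these samples alone, which may be technical.

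NRF2, the protein product of NFE2L2, is a transcription factor that KEAP1 holds at a low level in unstressed cells by marking it for degradation. When KEAP1 is modified by reactive compounds, NRF2 accumulates, pairs with small MAF proteins and binds antioxidant response elements at genes of detoxification, thioredoxin and iron metabolism. HMOX1 is also repressed by BACH1, a heme-binding factor that occupies the same elements. Ferritin is controlled mainly at translation, by iron regulatory proteins that bind an iron-responsive element at the 5′ end of its mRNAs.

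The sequences below are stretches of DNA and mRNA whose letters match those of such elements. Whether they are bound or act in these cells was not tested. The antioxidant response element core was searched as TGACNNNGC on both strands, in RefSeq promoter windows of GRCh38.p14 that run from 250 bases before to 50 bases after a gene's start. Of the 10 genes, 7 had a window and these had 11 windows in all, of which 2 held the core, both at TXNRD1, against 13.3% of all 35116 windows. HMOX1, FTH1 and PRDX1 had no window, so the search did not cover them. The first window, with its start at 104215779 on the plus strand of chromosome 12, held matches at positions -99 and -8, and the other, with its start at 104287032, held a match at -102. Each is printed on the plus strand with the core in capitals, and the second and the third are matches on the opposite strand.
TXNRD1 chr12:104215670-104215698: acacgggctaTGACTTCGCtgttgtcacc
TXNRD1 chr12:104215761-104215789: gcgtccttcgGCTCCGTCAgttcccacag
TXNRD1 chr12:104286920-104286948: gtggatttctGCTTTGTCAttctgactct
The AP-1 letters TGANTCA stood in none of the 11 windows, against 7.71% of all windows, and the CRE letters TGACGTCA, to which ATF proteins bind, stood in none, against 1.85% of all windows. In the ferritin mRNAs, CAGTGN, the loop letters of the iron-responsive element, was looked for before the start codon in GENCODE 29 (GRCh38). Only ENST00000331825.11 of FTL and ENST00000273550.12 of FTH1 were searched. This FTH1 transcript held 2.13 to 2.96% of the gene's TPM per library. The FTH1 transcript with the most reads, ENST00000532601.1, is annotated from 61964601 to 61967166 and so does not reach the printed stretch. The loop is in capitals.
FTL chr19:48965335-48965364, plus strand: ctcttgcttcaaCAGTGTttggacggaaca
FTH1 chr11:61967573-61967602, minus strand: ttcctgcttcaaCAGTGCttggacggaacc
RNA levels, which are all that was measured here, do not show the control of translation that acts through these loops.

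Depth ran from 26766103 to 30117281 estimated reads per library. The targeted gene ATF3, a stress-induced transcription factor, stood at 20.7 ± 3.88 CPM in the wild-type libraries and 6.16 ± 1.96 CPM in the knockouts (SD, n = 3), with no overlap (log2 fold change -1.75, SE 0.25, edgeR adjusted p = 0.0098). CPM are reads scaled to library size with TMM factors, and each fold change sets knockout over wild type. Of the genes tested 2770 (21.1%) passed an adjusted p of 0.05, 1494 (11.4%) of them higher and 1276 (9.72%) lower in knockout, and with library totals in place of TMM these were 1844 and 1013. The groups did not overlap for 43.5% of the tested genes (22.2% with knockout above, 21.4% with knockout below). Wild-type replicate 2 lay nearer to the knockout libraries than the other wild-type libraries on the first principal component (-13.5, against -37.9 and -34.9 in wild type and 21.0 to 35.5 in knockout). The defining eosinophil markers CLC, PRG3 and IL5RA had 0 reads in every library, and EPX, PRG2, SIGLEC8 and CCR3 were too low to test. Without wild-type replicate 1 edgeR called no gene, so every call below was lost there (smallest adjusted p 0.0503, 3496 genes with an unadjusted p under 0.05), and without wild-type replicate 3 it called 210 genes higher and 148 lower.

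Of the 10 genes, HMOX1 alone was called, as higher in knockout. The other 9 genes did not pass, and their log2 fold changes lay between -0.23 and 0.41. The share called was 1 of 10, beside 21.1% of all genes tested, and the difference between these shares was not tested. The median log2 fold change was 0.01 over the 10 genes and 0.01 over all tested genes. No member was called lower by edgeR or limma-voom, while 1 had a lower value with an unadjusted p under 0.05 and DESeq2 called 1 lower, which was NFE2L2 in both cases.

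**Figure D1:**
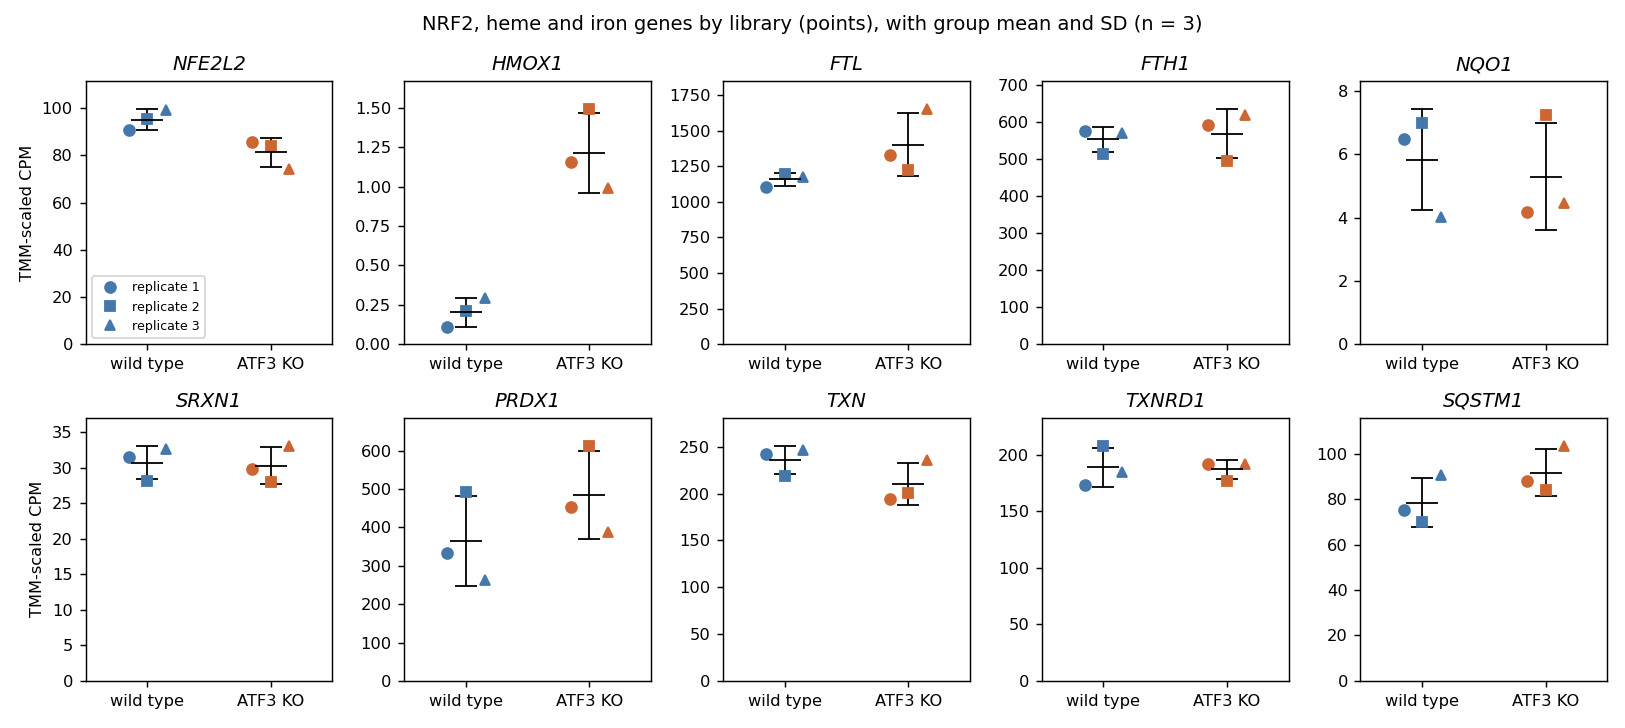
TMM-scaled CPM (y axis, linear from 0) of the 10 genes in each wild-type and ATF3 knockout library (points, shape by replicate), with the mean and SD of each group (n = 3). HMOX1 in knockout sits between 0.994 and 1.49 CPM, above all wild-type libraries (0.108 to 0.292 CPM), while the groups of FTH1, NQO1, SRXN1, PRDX1, TXN, TXNRD1 and SQSTM1 overlap.

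On the scale of TPM, which is per length and so allows genes to be compared, ferritin led and HMOX1 came last. In wild type FTL was highest with 1582 ± 52.2 TPM (SD, n = 3), followed by FTH1 (943 ± 60.1), PRDX1 (721 ± 224) and TXN (412 ± 26.4). SQSTM1 (88.1 ± 3.74), TXNRD1 (61.4 ± 4.44) and NFE2L2 (55.6 ± 0.70) formed a middle range. SRXN1 (10.7 ± 0.80), NQO1 (4.45 ± 1.40) and HMOX1 (0.161 ± 0.0837) were lowest. Among neighbours in this order only FTH1 and PRDX1 overlapped between libraries of the wild type, and the same pair overlapped in knockout, where PRDX1 (1026 ± 246) and FTH1 (1024 ± 87.4) lay next to each other. The other genes kept their rank in the means of both groups. The level of SQSTM1 rests largely on a single short transcript of 274 bases, which held 49.3 to 60.9 reads per library but 52.2 to 58.1% of the gene's TPM. At NFE2L2 a transcript of 451 bases held 71.9 to 122 reads but 25.8 to 33.4% of TPM. At TXNRD1 one of 400 bases held 18.8 to 60.3 reads but 6.57 to 20.8%. These estimates carry no error of assignment, so the order of these 3 genes is less sure than their spread shows.

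HMOX1 (ENSG00000100292.16, chromosome 22, 35380361 to 35394214, plus strand of GRCh38) encodes the inducible heme oxygenase, which opens the heme ring and releases iron, carbon monoxide and biliverdin. Wild-type replicates 1, 2 and 3 held 3, 6 and 8 estimated reads of it, and the knockout replicates held 30, 41 and 29. These are 0.108, 0.211 and 0.292 CPM in the wild-type libraries and 1.15, 1.49 and 0.994 CPM in the knockouts, so each knockout library lay above each wild-type library. The log2 fold change was 2.55 (SE 0.39, 95% interval 1.63 to 3.47, edgeR adjusted p = 0.0106), a level 5.85-fold higher. With 3 against 3 libraries an exact permutation test (two-sided) cannot go below p = 0.1, and it gave that value. Even in knockout HMOX1 stayed at a low level, 0.946 ± 0.246 TPM (SD, n = 3).

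Most reads of HMOX1 were assigned to the coding transcript ENST00000216117.9, to which 3.0, 4.16 and 5.81 reads went in the wild-type libraries and 25.8, 33.8 and 25.2 in the knockouts. The shorter coding transcript ENST00000412893.5 held the rest, and its retained-intron transcripts ENST00000481190.1 and ENST00000494998.1 held none. The filter on low counts asked for 0.356 CPM in 3 libraries, and HMOX1 passed it through the knockout libraries alone, so its presence among the tested genes is not independent of its difference. Without wild-type replicate 1 it was higher by 2.25, but missed the threshold (adjusted p = 0.0527). DESeq2 gave HMOX1 no adjusted p, with a log2 fold change of 2.57.

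HMOX1 is known to be induced in monocytes and macrophages. Of 10 markers of these cells 7 were tested and 3 were called higher (ITGAM, CSF1R and LYZ), against 11.4% of all genes. LYZ passed narrowly (edgeR adjusted p = 0.0466). CD68, CD163, VCAN and FCN1 overlapped between the groups and were not called, with CD163 at a log2 fold change of 1.36 (adjusted p = 0.269). The markers had a summed level of 188 to 660 CPM in wild type and 686 to 1363 CPM in knockout. Much of these sums was LYZ (means of 129 and 576 CPM) and VCAN (103 and 284 CPM, adjusted p = 0.297). Wild-type replicate 2 had the highest level of LYZ in its group, 259 CPM against 65.6 and 62.3 CPM. Of the defining genes, MRC1 had 1 read in all, and CD14 had 8 reads over the wild-type libraries and 23 over the knockouts. The summed eosinophil markers stood at 37.5 to 52.7 CPM in wild type and 118 to 188 in knockout, with 3 of 4 tested called higher, again against 11.4%. The summed neutrophil markers stood at 97.9 to 178 CPM against 346 to 624, with 6 of them at 0 reads. Here 3 of 6 tested were called higher, against the same 11.4%, and none lower by edgeR or limma-voom. The neutrophil protease gene CTSG, named after its values were seen, went the other way (log2 fold change -1.20, edgeR adjusted p = 0.0679), with an unadjusted p under 0.05, and DESeq2 called 1 of these markers lower. The part of any of these in the HMOX1 result was not tested. In bulk RNA a change in the number of cells of a type and a change in RNA per cell cannot be told apart.

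NFE2L2 (chromosome 2, 177227595 to 177392697, minus strand), the gene of NRF2 itself, stood at 90.5, 95.4 and 99.4 CPM in the wild-type libraries and 85.8, 84.0 and 74.2 CPM in the knockouts. The groups did not overlap, and knockout replicate 3 was lowest. Its log2 fold change was -0.23 (SE 0.08, 95% interval -0.41 to -0.04) with an edgeR adjusted p of 0.0786, so it did not pass. It passed with DESeq2 (adjusted p = 0.0407) and with upper-quartile factors (adjusted p = 0.049), and not in any other fit made. The main coding transcript ENST00000397062.8 had 78.8 ± 4.15 CPM in the wild-type libraries and 66.8 ± 8.23 CPM in the knockouts (SD, n = 3), again without overlap.

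The genes listed for NRF2 control, which include relatives of NRF2 such as NFE2 and NFE2L1, were called in both directions. Of 12 tested, 2 were called higher and 1 lower, against 11.4% and 9.72% of all genes, and the median log2 fold change was 0.12. NFE2, a myeloid and erythroid factor related to NRF2, rose from 18.6 ± 1.26 to 82.0 ± 18.1 CPM, which is 2.14 in log2 (SE 0.16, edgeR adjusted p = 0.00731). NFE2L1, another NRF family member that controls proteasome genes, went from 186 ± 17.7 to 123 ± 6.51 CPM and so fell by 0.59 in log2 (SE 0.09, adjusted p = 0.00997). BTRC, a ubiquitin ligase subunit that can mark NRF2 for degradation, rose by 0.44 (adjusted p = 0.0335). Named only once their values were known, KEAP1 and BACH1 did not pass with edgeR. KEAP1 had a log2 fold change of 0.23 (edgeR adjusted p = 0.0776) and BACH1 had -0.34 (0.0531). The groups did not overlap for either gene, with KEAP1 above and BACH1 below in knockout. In this list the lower calls numbered 2 under DESeq2, and likewise 2 under limma-voom, against 1 under edgeR. The higher calls numbered 3 under DESeq2. The genes behind these added calls are not named here. The small MAF genes MAFF, MAFG and MAFK overlapped between the groups. NFE2L1 did not pass without wild-type replicate 3 (adjusted p = 0.0505), and BTRC lost its call without any 1 of wild-type replicates 2 and 3 and knockout replicates 1 and 2 (0.0593 to 0.0885) and with the effective length offset (0.0645).

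The ferritin subunits FTL and FTH1 form the shell that stores iron, and FTH1 carries the ferroxidase activity. FTL (chromosome 19, 48965301 to 48966878, plus strand) stood at 1107, 1193 and 1178 CPM in the wild-type libraries and 1329, 1226 and 1651 CPM in the knockouts. All knockout libraries lay above all wild-type libraries, with knockout replicate 3 far above the other two. The log2 fold change of 0.27 (SE 0.11, 95% interval 0.01 to 0.54) did not pass (edgeR adjusted p = 0.122), and without knockout replicate 3 it was 0.13. FTH1 (chromosome 11, 61959718 to 61967660, minus strand) stood at 575, 514 and 571 CPM in the wild-type libraries and 591, 494 and 621 CPM in the knockouts. Its groups overlapped, with replicate 2 lowest in each, and its log2 fold change was 0.04 (SE 0.10, 95% interval -0.19 to 0.27, adjusted p = 0.8), a sign that turned with a GC trend removed and without wild-type replicate 2 or knockout replicate 3.

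The reads of FTH1 were spread over several overlapping transcripts. The coding transcripts ENST00000532601.1 and ENST00000530019.5 and the nonsense-mediated decay transcript ENST00000534180.1 held most of them, while the coding transcript ENST00000273550.12 held 693 to 878 reads per library. ENST00000532601.1 made up 32.8, 33.2 and 32.2% of the gene's TPM in wild type and 34.6, 37.2 and 35.6% in knockout, and ENST00000534180.1 made up 19.6, 19.5 and 20.4% against 18.4, 17.3 and 16.3%. Neither pair of groups overlapped in these shares, but on CPM both transcripts overlapped. ENST00000532601.1 had 169 to 188 CPM in wild type and 186 to 221 in knockout, and ENST00000534180.1 had 148 to 170 and 129 to 163. The shares carry no estimate of the error of assignment, and were not set against those of all transcripts. Pseudogenes named after FTH1 and FTL are many, 25 and 16 in the files, but held at most 0.396% and 0.0279% of the reads of gene and pseudogenes together. BEST1, on the opposite strand, shares 1267 exon bases with FTH1 and held 57 to 136 reads per library.

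Genes of iron uptake, storage and export were called in both directions, 4 higher and 2 lower of 24 tested, with a median log2 fold change of 0.05. That is 25% of the list, near the 21.1% of all genes tested. NCOA4, the receptor that delivers ferritin to the lysosome, rose from 231 ± 12.04 to 309 ± 26.4 CPM, which is 0.42 in log2 (SE 0.08, edgeR adjusted p = 0.0167). ACO1, which encodes iron regulatory protein 1, rose by 0.41 (SE 0.10, adjusted p = 0.0281), and the iron-sulfur scaffold gene ISCU rose by 0.36 (SE 0.07, adjusted p = 0.0166). PCBP2, an iron chaperone and RNA-binding protein, fell by 0.40 (SE 0.07, 679 to 513 CPM), and the mitochondrial iron importer gene SLC25A37 fell by 0.41 (SE 0.10, 238 to 180 CPM). The transferrin receptor gene TFRC, chosen after its values were seen, had 287 ± 38.2 CPM in the wild-type libraries and 295 ± 28.3 CPM in the knockouts (adjusted p = 0.81). None of the 5 passed without wild-type replicate 3 (adjusted p = 0.0588 to 0.118), ACO1 and SLC25A37 also without knockout replicate 2 (0.0634 and 0.0823), and SLC25A37 without knockout replicate 1 (0.0953). ACO1 lost it too without wild-type replicate 2 (0.05) and with the effective length offset (0.0512). NFS1, an iron-sulfur cluster enzyme gene, was the other one called higher, and is named after its values were seen. It shares 289 exon bases with another annotated gene on the same strand, which held 22 to 41 reads per library in wild type and 0 in knockout.

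Of 10 tested heme synthesis genes, with a median log2 fold change of 0.13, 3 were called higher, against 11.4% of all genes, and none was called lower by edgeR, DESeq2 or limma-voom, with 0 lower at an unadjusted p under 0.05. The 3 genes encode enzymes of the pathway from aminolevulinate to protoporphyrin. CPOX rose from 29.5 ± 1.76 to 42.5 ± 1.91 CPM, which is 0.53 in log2 (SE 0.08, edgeR adjusted p = 0.00968). ALAD rose from 58.4 ± 1.72 to 75.8 ± 2.10 CPM, which is 0.38 in log2 (SE 0.06, adjusted p = 0.0112), and UROD by 0.73 (SE 0.14, adjusted p = 0.0165), from 5.85 ± 0.26 to 9.72 ± 1.14 CPM. ALAS1, the rate-limiting enzyme outside red cells, and FECH, which inserts the iron, were chosen after their values were seen and did not pass, with log2 fold changes of 0.46 (adjusted p = 0.0963) and -0.67 (adjusted p = 0.347). An effective length offset took the call from CPOX (adjusted p = 0.0559) and UROD (0.0888), and without wild-type replicate 3 UROD (0.0649) and ALAD (0.0544) lost theirs, UROD also without knockout replicate 1 (0.0517).

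Among 11 tested genes of heme breakdown and transport, 3 were called higher and 1 lower, with a median log2 fold change of 0.36, against 11.4% and 9.72% of all genes. HMOX2, the constitutive heme oxygenase, rose from 20.7 ± 1.26 to 28.3 ± 1.23 CPM, which is 0.45 in log2 (SE 0.08, edgeR adjusted p = 0.0135). HEBP1, a heme-binding protein, went from 31.0 ± 2.58 to 19.7 ± 2.57 CPM and so fell by 0.66 in log2 (SE 0.12, adjusted p = 0.0145). Both lost their calls without wild-type replicate 3 (0.0649 and 0.0646). The porphyrin transporter gene ABCB6 and the heme exporter gene FLVCR1 were called higher by 0.77 and 0.36 (adjusted p = 0.0349 and 0.044). ABCB6 shares 2864 exon bases with another annotated gene, which has no current symbol, on the same strand and lost its call without any 1 library (0.0523 to 0.136). FLVCR1 had a log2 fold change of -0.21 when the offset of effective length was used (adjusted p = 0.223), and its call was lost without each library other than knockout replicate 3 (0.0654 to 0.154). It was lost as well with limma-voom (0.0514), with upper-quartile factors (0.0513) and without the low-count filter (0.0638), and ABCB6 lost its call with DESeq2 (0.0559) and without that filter (0.0669). With the offset of effective length ABCB6 was at 0.38 (adjusted p = 0.405).

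**Figure D2:**
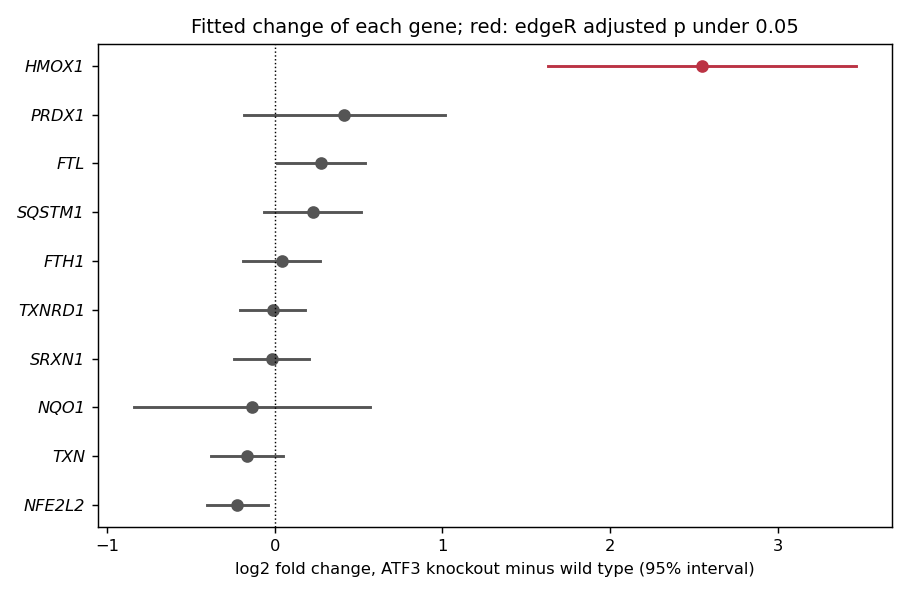
Fitted log2 fold change, knockout minus wild type (x axis), of the 10 genes (rows) with its 95% interval. The interval of HMOX1 (1.63 to 3.47) lies apart from those of the other 9 genes, and that of NQO1 is wide (-0.84 to 0.56).

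The thioredoxin system passes electrons from NADPH through the reductase TXNRD1 to thioredoxin, TXN, which reduces peroxiredoxins such as PRDX1, and sulfiredoxin, SRXN1, repairs overoxidised peroxiredoxin. PRDX1 (chromosome 1, 45511036 to 45523047, minus strand) stood at 334, 494 and 264 CPM in the wild-type libraries and 455, 613 and 389 CPM in the knockouts. Replicate 2 was the highest library in each group and replicate 3 the lowest, and the groups overlapped. The log2 fold change was 0.41 (SE 0.25, 95% interval -0.19 to 1.02, edgeR adjusted p = 0.28). Leaving out wild-type replicate 2 gave 0.70 (adjusted p = 0.0738), and leaving out knockout replicate 2 gave 0.21.

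TXN (chromosome 9, 110243811 to 110256640, minus strand) stood at 242, 219 and 247 CPM in the wild-type libraries and 195, 201 and 236 CPM in the knockouts. Only knockout replicate 3 reached the wild-type range. The log2 fold change was -0.17 (SE 0.09, 95% interval -0.38 to 0.05, edgeR adjusted p = 0.232). Without knockout replicate 3 it was -0.26 and passed narrowly (adjusted p = 0.0482), and with a GC trend removed it was 0.03. SRXN1 (chromosome 20, 646615 to 653370, minus strand) had nearly the same level in both groups, with 31.5, 28.1 and 32.6 CPM in the wild-type libraries and 29.9, 27.9 and 33.0 CPM in the knockouts (log2 fold change -0.02, 95% interval -0.24 to 0.20, adjusted p = 0.9), and the sign turned with library totals.

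TXNRD1 (chromosome 12, 104215779 to 104350305, plus strand) overlapped as well, with 174, 208 and 185 CPM in the wild-type libraries and 192, 177 and 192 CPM in the knockouts. Its log2 fold change was -0.01 (SE 0.08, 95% interval -0.21 to 0.18, edgeR adjusted p = 0.928). The gene's transcripts were not as even. The coding transcript ENST00000526691.5, which starts at 104286881, inside the second window searched and before the third printed sequence, had 22.2, 34.6 and 45.8 CPM in the wild-type libraries and 65.0, 72.2 and 81.3 CPM in the knockouts. It made up 8.80, 11.9 and 17.3% of the gene's TPM in wild type and 23.5, 29.6 and 33.4% in knockout. All 3 knockout libraries lay above all 3 wild-type libraries on both scales. The coding transcript ENST00000526390.5 lay below, with 5.15, 11.9 and 6.75 CPM in the wild-type libraries and 3.79, 0 and 3.91 CPM in the knockouts, and the most abundant wild-type transcript ENST00000503506.6 overlapped.

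**Figure D3:**
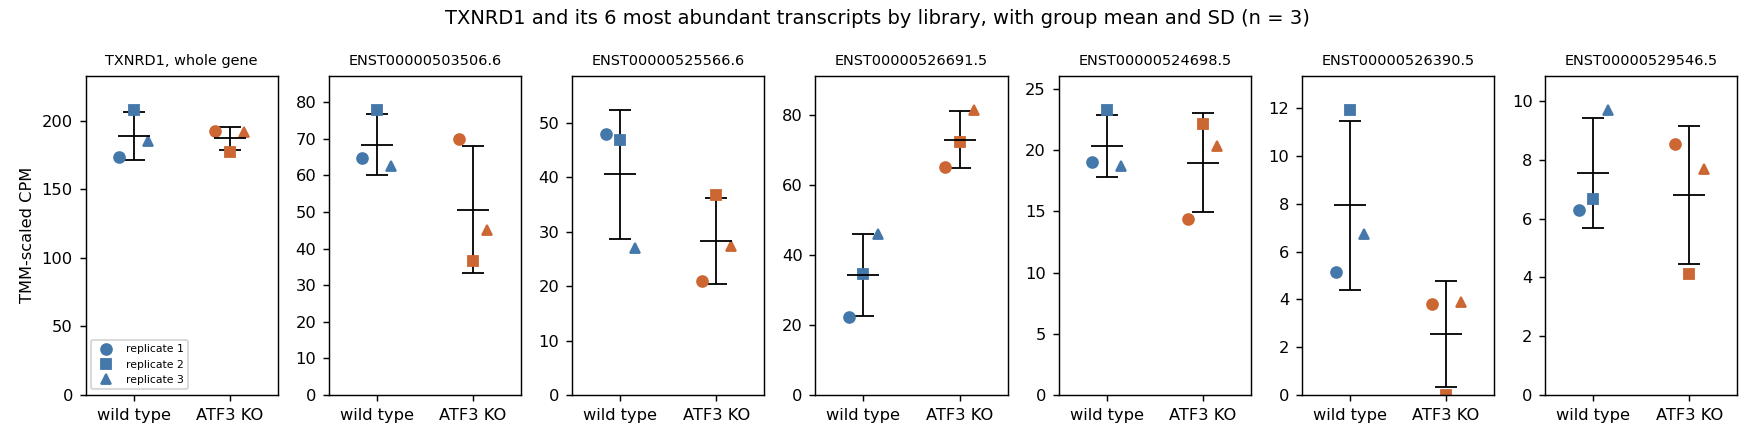
TMM-scaled CPM (y axis, linear from 0) of TXNRD1 and of its 6 most abundant transcripts in each library (points, shape by replicate), with group mean and SD (n = 3). The whole gene overlaps between the groups, while ENST00000526691.5 lies between 65.0 and 81.3 CPM in knockout and between 22.2 and 45.8 CPM in wild type.

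These transcripts overlap, and the division of a gene's reads among them comes with no error in the files and was not tested. Over the 10 genes, 45 of 88 transcripts had a mean of at least 10 reads, and 11 of them did not overlap between the groups (8 above, 3 below in knockout), against 25.1% of all transcripts at that level. That share is near the background.

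Among other thioredoxin, peroxiredoxin and antioxidant enzymes, 3 of 26 tested genes were called higher and 3 lower, with a median log2 fold change of 0.01. This share of 23.1% is near the 21.1% of all genes. MSRB1, a selenoprotein that repairs oxidised methionine, rose from 12.03 ± 0.52 to 22.4 ± 2.74 CPM, which is 0.90 in log2 (SE 0.11, edgeR adjusted p = 0.00859). SESN2 and SESN1 are stress-induced sestrins, and they moved in opposite directions. SESN2 went from 138 ± 28.0 to 52.2 ± 9.51 CPM and so fell by 1.40 in log2 (SE 0.19, adjusted p = 0.00914), and SESN1 rose from 28.7 ± 4.49 to 55.4 ± 19.6 CPM, which is 0.95 in log2 (SE 0.25, adjusted p = 0.0377). PRDX2 rose by 0.39 (adjusted p = 0.0409), and the glutaredoxin genes GLRX3 and GLRX2 fell by 0.28 and by 0.45 (adjusted p = 0.0266 and 0.0267). With the effective length offset SESN1, PRDX2, GLRX3 and GLRX2 lost their calls (0.0555, 0.0655, 0.0747 and 0.171), and so they did without wild-type replicate 3 (0.127, 0.0762, 0.105 and 0.104) or knockout replicate 1 (0.0669, 0.0959, 0.0777 and 0.0723). PRDX2, GLRX3 and GLRX2 lost them without knockout replicate 2 too (0.105, 0.0688 and 0.0663), and PRDX2 and SESN1 without wild-type replicate 2 (0.0737 and 0.0514). With a GC trend removed PRDX2 (0.115) and GLRX2 (0.0975) lost theirs, and GLRX2 shares 481 exon bases with RO60 on the opposite strand.

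NQO1 (chromosome 16, 69706996 to 69726951, minus strand) encodes a quinone reductase that is a standard readout of NRF2 activity, and it was among the lowest of the 10 genes. It had 6.49, 6.99 and 4.01 CPM in the wild-type libraries and 4.19, 7.24 and 4.46 CPM in the knockouts. The groups overlapped nearly throughout. The log2 fold change of -0.14 (SE 0.30, edgeR adjusted p = 0.77) had a 95% interval from -0.84 to 0.56, wider than that of any other member outside HMOX1.

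The remaining NRF2 targets, in glutathione and NADPH metabolism and detoxification, were called in both directions. Of 25 tested, 6 were called higher and 2 lower, against 11.4% and 9.72% of all genes, and the median log2 fold change was 0.07. SLC7A11, the cystine transporter, which is also a target of ATF4, went from 355 ± 41.6 to 81.0 ± 22.3 CPM and so fell by 2.13 in log2 (SE 0.20, edgeR adjusted p = 0.00787). GSR, glutathione reductase, went from 117 ± 6.50 to 81.1 ± 12.8 CPM and so fell by 0.53 in log2 (SE 0.12, adjusted p = 0.0223). The NADPH-producing enzyme gene IDH1 rose by 0.54 (SE 0.09, 79.5 to 116 CPM), and the transaldolase gene TALDO1 rose by 0.49 (SE 0.10, 182 to 255 CPM). The subunits of glutamate-cysteine ligase, chosen after their values were seen, did not pass, with log2 fold changes of -0.30 for GCLC (adjusted p = 0.105) and 0.00 for GCLM (adjusted p = 0.998). Without wild-type replicate 3 IDH1 (0.0572), TALDO1 (0.0803) and GSR (0.0759) lost their calls, TALDO1 (0.0529) and GSR (0.0679) also without knockout replicate 1, and GSR without knockout replicate 2 (0.0617).

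**Figure D4:**
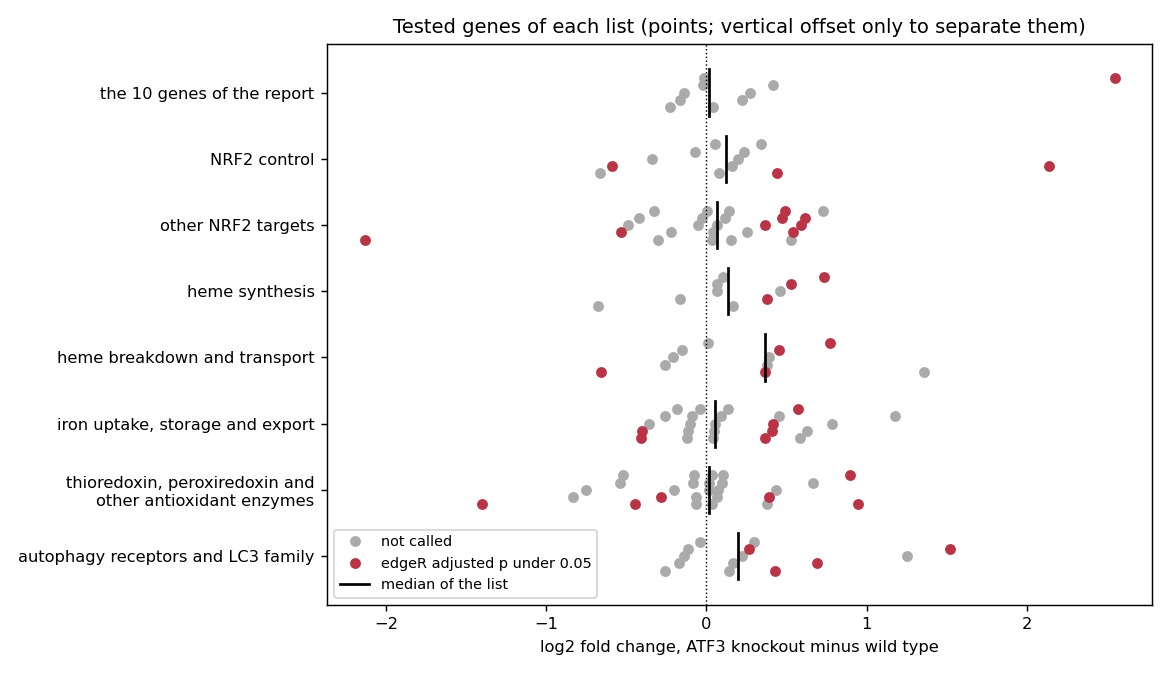
Log2 fold change, knockout minus wild type (x axis), of every tested gene of the 10 and of each related list (rows), red where the edgeR adjusted p is under 0.05, with the list median as a black bar. SLC7A11 at -2.13, HMOX1 at 2.55 and NFE2 at 2.14 lie farthest from 0, and the list medians lie between 0.01 and 0.36.

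SQSTM1 (chromosome 5, 179806398 to 179838078, plus strand) encodes p62, an autophagy receptor that binds KEAP1 and is itself an NRF2 target. It stood at 75.4, 69.7 and 90.5 CPM in the wild-type libraries and 87.8, 84.0 and 103 CPM in the knockouts. Replicate 2 was lowest and replicate 3 highest in each group, and wild-type replicate 3 lay above knockout replicates 1 and 2 in CPM. In TPM, which were not tested and rest largely on a transcript of 274 bases, the groups did not overlap. They held 85.7 to 92.4 TPM in wild type and 98.6 to 108 TPM in knockout. The log2 fold change was 0.22 (SE 0.12, 95% interval -0.06 to 0.51, edgeR adjusted p = 0.226). Its coding transcript ENST00000389805.9 had 8.21, 6.70 and 12.2 CPM in the wild-type libraries and 16.3, 14.1 and 15.4 CPM in the knockouts, without overlap. MRNIP and MGAT4B lie on the opposite strand and share 1582 and 105 exon bases with SQSTM1, and MGAT4B held 2740 to 4208 reads per library.

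Of 14 tested autophagy receptors and LC3 family genes, 4 were called higher, against 11.4% of all genes, and none lower by edgeR, DESeq2 or limma-voom, with 1 lower at an unadjusted p under 0.05. GABARAPL1, a member of the LC3 family that receptors such as p62 bind, rose from 2.50 ± 0.74 to 7.18 ± 1.13 CPM, which is 1.52 in log2 (SE 0.25, edgeR adjusted p = 0.0122). TOLLIP, an adaptor for ubiquitinated cargo, rose from 45.7 ± 2.39 to 61.4 ± 3.27 CPM, which is 0.43 in log2 (SE 0.07, adjusted p = 0.013), and ATG16L1, which directs LC3 to membranes, rose by 0.27 (adjusted p = 0.0369). All 3 lost their calls without wild-type replicate 3 (0.0564, 0.061 and 0.148). With the effective length offset TOLLIP (0.135) and ATG16L1 (0.571) lost theirs, and ATG16L1 did also without wild-type replicate 2 (0.0573), knockout replicate 1 (0.0901), knockout replicate 2 (0.0831) or the low-count filter (0.0661). The median log2 fold change was 0.20. The remaining called gene, named after its values were seen, was GABARAP. It shares 691 exon bases with another annotated gene on the same strand, which held 699 to 1106 reads per library in wild type and 1358 to 1479 in knockout.

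Across the 6 libraries, the protein-coding genes of at least 1 CPM whose log2 CPM ran most like that of HMOX1 were USP21, ANXA4 and IRF2, with Pearson r of 0.997, 0.996 and 0.995. Those most like NFE2L2 included CNOT1 and RASSF5, with r of 0.991 and 0.985. The libraries fall into 2 groups, and 37 genes lay within 0.01 of the third value or above it for HMOX1, so they are given as a description.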

How the data were processed

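Polyadenylated RNA of 6 EoL-1 libraries was sequenced with a stranded mRNA kit, per the labels. The authors deposited 1 Salmon table per library, with estimated counts and TPM for 177456 transcripts, per the file headers. The submitters' processing notes name FastQC 0.11.9, Salmon 1.6.0 and hg38. Which annotation release and strand setting went into the quantification is not given in the sources used here. A transcript's effective length did not vary between libraries.

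Transcripts were joined to genes by identifier with GENCODE 29 (GRCh38), and 10429 without a gene, holding 3.59 to 3.82% of reads, were left out. Estimated counts were summed over 35052 genes, rounded and tested with edgeR 4.0.16 (glmQLFTest, R 4.3.3; TMM factors, filterByExpr with a minimum of 10 reads, group alone), with Benjamini-Hochberg adjustment over 13131 genes at 0.05. Gene TPM are sums of the deposited transcript TPM and were not tested. Alternatives used DESeq2 1.42.0, limma 3.58.1 (voom), other scaling factors, an offset of average effective length, trends on GC content or length removed (chosen after seeing the data), and fits without each library. On simulated data over 13131 genes of this comparison the test called 21.5% of genes changed 1.5-fold, 72.7% of those changed 2-fold and 86.4% of those changed 4-fold. Only 65, 66 and 66 tested genes were changed there, beside 12749 unchanged, while 21.1% of genes were called in the data. The adjustment is stricter where few genes change, so these shares are not the power of the test in the data.

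The named genes are ATF3, the 10 members, up to 3 called genes per direction and related list with the smallest p, and the 3 genes of at least 1 CPM most like HMOX1 and like NFE2L2. The members and lists were chosen with earlier results of these data known. Some genes that this rule or these lists hold are not reported here. Reads of overlapping genes may be shared.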

Additional observations from a re-analysis of the deposited data

How the results depend on the processing

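HMOX1 kept its direction in every fit made (log2 fold change 2.25 to 2.89 without 1 library), and NFE2L2, FTL, PRDX1 and SQSTM1 kept theirs. Without 1 library the genes called higher ranged from 0 to 1370 and those called lower from 0 to 1388, with none called without wild-type replicate 1 and 210 and 148 without wild-type replicate 3. In the same fits the members called higher and called lower each ranged from 0 to 1. Genes called ranged from 0 to 4 for NRF2 control, 0 to 7 for other NRF2 targets, 0 to 3 for heme synthesis, 0 to 3 for heme breakdown and transport, 0 to 6 for iron, 0 to 6 for thioredoxin and other antioxidant enzymes and 0 to 4 for autophagy. Log2 fold changes ranged from -0.0376 to 0.131 for FTH1, -0.431 to 0.0108 for NQO1, -0.0974 to 0.0342 for SRXN1 and -0.0718 to 0.0597 for TXNRD1.

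With the effective length offset 723 genes were higher and 660 lower, with calls in 1 heme synthesis gene, 2 heme breakdown and transport genes, 2 thioredoxin and other antioxidant genes and 1 autophagy gene, and FLVCR1 turned to -0.206. DESeq2 called 0 members higher, 1 lower and 5 NRF2 control genes. Upper-quartile factors called 1 member lower, and with library totals alone SRXN1 was at 0.0258 and TXNRD1 at 0.0334. Without the low-count filter 2 heme breakdown and transport genes were called. With a GC trend removed 6 NRF2 control genes and 6 autophagy genes were called, and FTH1 (-0.0263), TXN (0.0329) and TXNRD1 (0.0124) changed sign. Adding pseudogene reads changed no member's call. The causes were not tested.

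Same-numbered libraries of the 2 groups had correlated deviations of -0.0924, 0.106 and 0.196, so the numbers were not taken to pair them. With the replicate number as a block 1225 genes were higher and 1093 lower, 2 members were called higher (PRDX1 joined HMOX1, log2 fold change 0.44, adjusted p = 0.0213), BTRC, ABCB6, FLVCR1, PRDX2 and ATG16L1 lost their calls, and 2 heme breakdown and transport genes and 2 autophagy genes were called. The 3 wild-type libraries did not each correlate best with their own number. HMOX1 had the fewest reads of the 10 genes, 17 in wild type against 100 in knockout.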
